A study of Mus musculus with 4 samples.

Results

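The genes described here are the 19 Wnt ligands and 10 Frizzled receptors with a row in the read count table, together with 9 further genes of the Wnt pathway: the co-receptors Lrp5 and Lrp6, the effector Ctnnb1, the TCF/LEF factors Tcf7, Tcf7l2 and Lef1, and the feedback genes Axin2, Rnf43 and Znrf3. The members are defined by gene symbol and make up 38 of 24527 genes. A level is given as CPM, the reads of a gene per 1000000 reads of its library, scaled between libraries with edgeR's TMM factors. A mean of at least 1 CPM over the 4 libraries was reached by 18 of the 38 genes, and the other 20 were under it.

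Wnt proteins are secreted, lipid-modified ligands that bind a Frizzled receptor together with Lrp5 or Lrp6. In the canonical branch this binding stops a destruction complex built on Axin from degrading beta-catenin, the product of Ctnnb1, which then enters the nucleus and acts on target genes with TCF/LEF factors. Other pairs of Wnt and Frizzled proteins act through the planar polarity and calcium branches. In the melanocyte lineage the pathway takes part in the formation of pigment cells from the neural crest and acts on Mitf, the transcription factor that governs pigment genes.

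RNA of B16F10, a mouse melanoma line of C57BL/6 origin, was sequenced from 4 sources with 1 library each. They were 2D monoculture, 2D co-culture with the mouse fibroblast line NIH/3T3, spheroids also grown with NIH/3T3, and a tumor grown in the mouse. All 4 libraries carry the genotype label WT and no treatment is labelled. Per the study's methods, the culture libraries come from green fluorescent Linterna B16F10 cells sorted from the fibroblasts. The methods name red fluorescent NIH/3T3 cells for the spheroids and NIH/3T3 cells without that label for 2D co-culture. By the same account, tumors grew under the skin of 1-year-old female C57BL/6 mice. The tumor library is labelled as snap-frozen tissue while the methods describe sorted tumor cells, so it may hold the RNA of host cells. The comparisons address how gene expression in the fibroblast-bearing spheroid relates to that in 2D culture and in the tumor.

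The totals lay between 118896900 and 150028663 reads, and 3 reads, the number that a count of 0 allows, came to 0.0185 to 0.0262 CPM. With 1 library per condition no difference has a replicate check and no test across conditions was made. The intervals given are 95% counting intervals, and they cover counting error only. All 8 melanocyte markers were read in every library, with summed levels of 11420 to 20122 CPM. The 9 fibroblast markers summed to 19.7 CPM in 2D monoculture, 683 CPM in 2D co-culture, 37.4 CPM in the spheroid library and 3194 CPM in the tumor, and none of them was at 0 in any library. Col1a2, a fibrillar collagen chain, made up 514 CPM of the sum in 2D co-culture, where Dcn and Lum, other genes of fibroblasts, had 1.68 and 0.0873 CPM. The 3 collagen VI genes summed to 0.442 CPM in 2D monoculture, 225 CPM in 2D co-culture, 5.96 CPM in the spheroid library and 294 CPM in the tumor. The tumor library further held 4599 CPM of 5 skeletal muscle markers, 1516 CPM of 8 myeloid markers, 866 CPM of 5 pericyte and smooth muscle markers, 722 CPM of 3 adipocyte markers, 244 CPM of 6 endothelial markers and 224 CPM of 4 Schwann and nerve markers. The culture libraries held at most 12.4, 29.9, 85.7, 1.19, 4.55 and 111 CPM of these lists, in the same order. In the tumor Des made up 656 of the 866 CPM and Mbp 137 of the 224 CPM. Past 2-fold above 2D monoculture there were 4 of the 5 pericyte and smooth muscle genes and 2 of the 4 Schwann and nerve genes. S100b of the latter list was lower in the tumor than in 2D monoculture, with 77.6 against 87.6 CPM. Lymphoid and keratinocyte markers summed to at most 6.40 and 1.95 CPM in any library. Ptprc, the defining marker of blood cells, had 49.5 CPM in the tumor and at most 0.0961 CPM in the cultures, and Pecam1, that of vessels, had 99.4 CPM and at most 0.236 CPM. The part of these cells in the results that follow was not tested, and fewer cells of a type and less RNA per cell cannot be told apart in such bulk libraries.

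Among the Wnt ligands, Wnt9a, Wnt5b and Wnt6 reached a mean of 1 CPM. Wnt9a, which signals through beta-catenin in development, had 9.44 CPM in 2D monoculture, 2.14 CPM in 2D co-culture, 11.96 CPM in the spheroid library and 3.09 CPM in the tumor. It was thus high in 2D monoculture and the spheroid and low in the other two libraries. The log2 ratio of 2D co-culture to 2D monoculture was -2.14 (-2.34 to -1.94), a level 4.41-fold lower, and that of the spheroid to 2D co-culture was 2.48 (2.29 to 2.68), a level 5.59-fold higher. Between the spheroid and 2D monoculture it was 0.34 (0.24 to 0.45). Wnt9a (ENSMUSG00000000126.11) lies on the plus strand of chromosome 11, from 59306928 to 59333552 in mm10.

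The 250 bases before the RefSeq start of Wnt9a, chr11:59306680-59306929 on the plus strand of GRCm38.p6, are printed because this gene had the strongest contrast between the cultures among the ligands with a mean of 1 CPM. Capitals mark an E-box, the word CACGTG that Mitf and related factors bind, which starts 228 bases before the start of transcription.
Wnt9a: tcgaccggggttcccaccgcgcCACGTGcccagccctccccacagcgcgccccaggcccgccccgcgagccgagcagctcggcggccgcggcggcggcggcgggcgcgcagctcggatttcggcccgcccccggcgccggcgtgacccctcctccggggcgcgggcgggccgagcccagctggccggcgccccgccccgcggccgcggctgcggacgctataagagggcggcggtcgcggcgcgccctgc
The E-box reads the same on both strands and was found in 3 of 37 such windows of the 27 genes with an entry in the promoter table used (8.11%) and in 6.02% of all 32851 windows. A match of letters is a description and not a site of binding.

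Wnt6, an epithelial ligand of the canonical branch, had 1.41 CPM in 2D monoculture, 3.08 CPM in 2D co-culture, 4.84 CPM in the spheroid library and 1.07 CPM in the tumor. The spheroid was 3.43-fold above 2D monoculture, with a log2 ratio of 1.78 (1.55 to 2.01), and 2D co-culture was 2.19-fold above it, with a log2 ratio of 1.13 (0.87 to 1.38). Wnt5b, a ligand of the planar polarity branch, had 3.43 CPM in 2D monoculture, 3.39 CPM in 2D co-culture, 3.29 CPM in the spheroid library and 1.02 CPM in the tumor. The 3 cultures were level within counting error, with log2 ratios to 2D monoculture of -0.06 (-0.25 to 0.13) for the spheroid and -0.02 (-0.21 to 0.18) for 2D co-culture, and the tumor was 3.37-fold lower. The correction for GC content given further on moved the spheroid ratio of Wnt5b to -0.74.

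The other 16 ligands had under 1 CPM in every culture library, and 7 of them had 60 to 340 reads in the tumor. Wnt2, a ligand of lung and vessel development, had 0 reads in 2D monoculture and in 2D co-culture, 1 read in the spheroid and 340 reads in the tumor, which is 2.09 CPM (1.88 to 2.33). Against the limit of 3 reads, the tumor was at least 99.5-fold higher than 2D monoculture. Wnt16 had 3 reads in 2D monoculture, 0 reads in 2D co-culture and in the spheroid and 163 reads in the tumor, a ratio to 2D monoculture of 47.7 (16.03 to 234). These genes were absent or nearly so from the reads of all cultures.

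Wnt11, a planar polarity ligand, had 0.0562 CPM in 2D monoculture, 0.0524 CPM in 2D co-culture, 0.0661 CPM in the spheroid library and 1.59 CPM in the tumor, 28.3-fold above 2D monoculture. In mm10, 10.1% of its exon bases overlap Gm8398, a gene on the other strand, and the strand setting of the counting is not given, so reads of the pair cannot be told apart. Wnt4 had 0.0702, 0.166, 0.0808 and 1.05 CPM in 2D monoculture, 2D co-culture, the spheroid and the tumor, with the tumor 15.0-fold above 2D monoculture. Wnt10b, known for its action against fat cell formation, had 1, 5, 10 and 60 reads in the same order, a ratio of tumor to 2D monoculture of 52.7 (9.10 to 2114). Wnt2b had 0.414, 0.175, 0.176 and 0.856 CPM in that order, so that both libraries grown with fibroblasts were below 2D monoculture and the tumor was 2.07-fold above it.

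Wnt5a, a ligand of the planar polarity branch that is linked to invasive melanoma cells, also differed between the cultures. It had 0 reads in 2D monoculture, 91 reads (0.795 CPM) in 2D co-culture, 4 reads (0.0294 CPM) in the spheroid and 270 reads (1.66 CPM) in the tumor. The level was at least 37.7-fold higher in 2D co-culture and at least 79.0-fold higher in the tumor than in 2D monoculture. The order of the 4 libraries, lowest in 2D monoculture and highest in the tumor, was also that of the summed fibroblast markers. It was that of the summed collagen VI genes as well, and in both sums the spheroid came next to 2D monoculture. Single genes did not all share this order. Pdgfrb made up 23.5 of the 37.4 CPM of fibroblast markers in the spheroid and 11.02 of the 19.7 CPM in 2D monoculture. Col1a1, Col1a2, Col3a1, Thy1, Col6a1 and Col6a2 were also higher in the spheroid than in 2D monoculture. Dcn, Pdgfra and Postn were lower there, as were Lum and Col6a3 with overlapping counting intervals. The part of fibroblast RNA in the level of Wnt5a was not tested. The remaining 9 ligands, Wnt1, Wnt3, Wnt3a, Wnt7a, Wnt7b, Wnt8a, Wnt8b, Wnt9b and Wnt10a, had between 0 and 17 reads in any library, and Wnt3a, the classic canonical ligand, had 0 reads in all 4. The highest of them were Wnt9b with 17 reads and Wnt10a with 13 reads, both in the tumor. Counts this low allow shares of up to the limits given above and do not show that a ligand was absent.

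**Figure D1:**
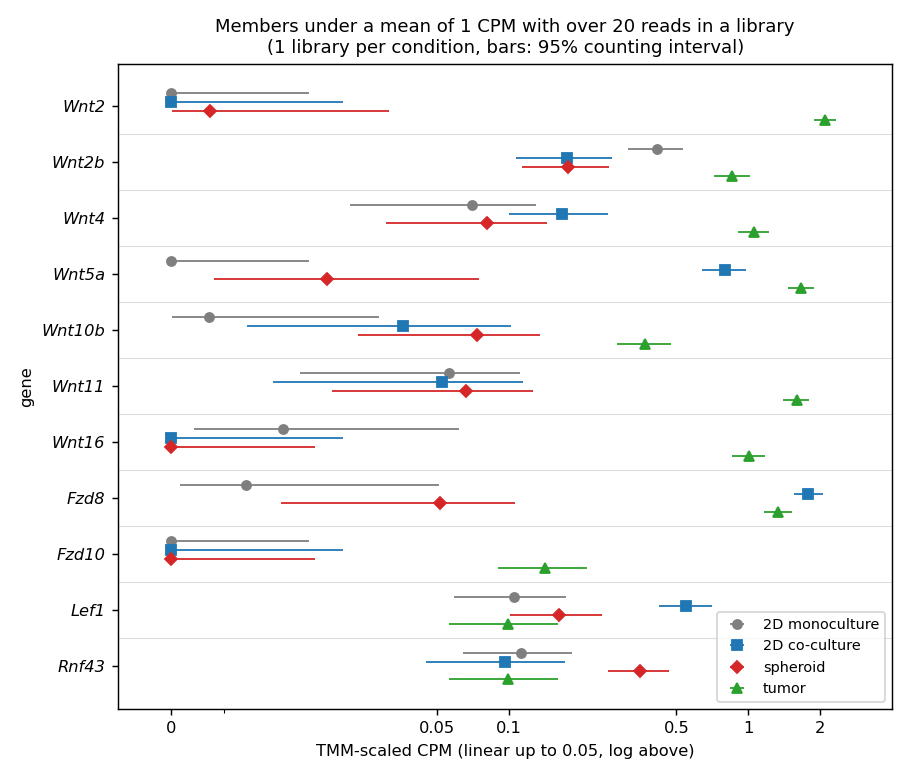
The plot shows, for members whose mean was under 1 CPM and that had over 20 reads in some library, the TMM-scaled CPM (axis linear up to 0.05 and logarithmic above) with 95% counting intervals, 1 library per condition. Wnt2, Wnt11 and Wnt16 had 1.004 to 2.09 CPM in the tumor and at most 0.0661 CPM in the cultures, whereas Wnt5a and Fzd8 were above 0.7 CPM in both the tumor and 2D co-culture.

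Levels of different genes can be compared only after division by length, as CPM per kb of exon. On this scale the 19 ligands together summed to 5.10 CPM per kb in 2D monoculture, 3.76 in 2D co-culture, 7.42 in the spheroid and 4.83 in the tumor. Wnt9a made up 55.7% of the sum in 2D monoculture and 48.6% in the spheroid, and Wnt6 led in 2D co-culture with 39.6%. In the tumor Wnt9a and Wnt2 shared the first place with 19.3% and 19.2%, followed by Wnt16 with 12.5%. At least 1 CPM was reached by the same 3 ligands in each culture and by 8 ligands in the tumor.

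Fzd7 was the most abundant receptor per kb in every library. It had 89.0 CPM in 2D monoculture, 218 CPM in 2D co-culture, 255 CPM in the spheroid library and 70.3 CPM in the tumor, and accounted for 49.0%, 61.5%, 60.8% and 49.4% of the summed Frizzled level per kb in the same order. Both libraries grown with fibroblasts were high and the other two low. The spheroid was 2.87-fold above 2D monoculture, with a log2 ratio of 1.52 (1.49 to 1.55), and 2D co-culture was 2.45-fold above it, with a log2 ratio of 1.29 (1.26 to 1.32). The tumor was below 2D monoculture, with a log2 ratio of -0.34 (-0.38 to -0.30). Fzd7 (ENSMUSG00000041075.8) lies on the plus strand of chromosome 1, from 59482424 to 59486955 in mm10.

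The 250 bases before the RefSeq start of Fzd7, chr1:59481897-59482146 on the plus strand of GRCm38.p6, are printed because this receptor had more reads than any other Frizzled receptor in every library. The words searched were the letters CTTTG followed by a pair of bases that are each A or T, which TCF/LEF factors bind, on both strands. Capitals mark AACAAAG, such a word read on the other strand, which starts 130 bases before this RefSeq start. The gene span given above begins further downstream than this RefSeq start.
Fzd7: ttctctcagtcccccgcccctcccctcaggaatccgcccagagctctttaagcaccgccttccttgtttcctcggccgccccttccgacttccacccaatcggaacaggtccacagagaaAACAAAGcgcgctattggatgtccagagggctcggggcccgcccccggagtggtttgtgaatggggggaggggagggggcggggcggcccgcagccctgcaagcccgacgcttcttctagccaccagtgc
Such a word was found in 5 of the 37 windows (13.5%) and in 14.8% of all windows, so the share in the Wnt pathway genes was close to that of all genes. The other 4 windows with a word belong to Wnt5b, Wnt11, Lef1 and Tcf7l2.

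Fzd9, a receptor expressed in neural tissue and bone, had 2.07 CPM in 2D monoculture, 5.80 CPM in 2D co-culture, 14.4 CPM in the spheroid library and 2.93 CPM in the tumor. The spheroid was 6.98-fold above 2D monoculture and 2.49-fold above 2D co-culture, with log2 ratios of 2.80 (2.63 to 2.98) and 1.32 (1.19 to 1.45). Fzd5, a receptor of the canonical branch that also binds Wnt5a, had 10.3, 17.0, 26.6 and 5.43 CPM in 2D monoculture, 2D co-culture, the spheroid and the tumor. Its level in the spheroid was 2.59-fold above 2D monoculture and 4.90-fold above the tumor. In mm10, 17.8% of its exon bases overlap Gm38058 on the other strand.

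Fzd2, a receptor of Wnt5a and Wnt3a, had 26.9, 30.0, 56.3 and 8.56 CPM in the same order. The spheroid was 2.10-fold above 2D monoculture and 6.58-fold above the tumor. Fzd1 had 14.8 CPM in 2D monoculture, 30.3 CPM in 2D co-culture, 24.8 CPM in the spheroid library and 12.7 CPM in the tumor, with 2D co-culture 2.04-fold above 2D monoculture. Fzd4, which also serves as the receptor of norrin in vessels, had 5.85, 12.5, 9.32 and 18.9 CPM and was the receptor with the largest ratio of tumor to 2D monoculture among those with a mean of 1 CPM, with 3.23-fold and a log2 ratio of 1.69 (1.58 to 1.81). The endothelial markers in that library summed to 244 CPM against 3.11 CPM in 2D monoculture, with all 6 markers higher, and their part in the level of Fzd4 was not tested.

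Fzd6 and Fzd3, receptors of planar polarity, had lower levels in the spheroid than in 2D monoculture. Fzd6 had 26.0 CPM in 2D monoculture, 31.8 CPM in 2D co-culture, 14.3 CPM in the spheroid library and 22.8 CPM in the tumor, so the spheroid was 1.81-fold below 2D monoculture and 2.22-fold below 2D co-culture. With 1 CPM added, its log2 ratio of the spheroid to 2D monoculture went from -0.82 to -0.23 under the correction for GC content given further on. Fzd3 had 4.58, 3.32, 2.78 and 2.01 CPM in that order, and was highest in 2D monoculture, but its spheroid ratio changed sign after a correction for GC content given further on. Fzd8 had 2 reads in 2D monoculture, 204 reads (1.78 CPM) in 2D co-culture, 7 reads in the spheroid and 216 reads (1.33 CPM) in the tumor. The ratio of 2D co-culture to 2D monoculture was 127 (34.7 to 1055) and that of the tumor was 94.8 (25.9 to 788), while the spheroid was at 3.66 (0.697 to 36.1). As with Wnt5a, the highest levels were in 2D co-culture and the tumor, the libraries with the most collagen VI and fibroblast marker reads, and the part of fibroblast RNA was not tested. Fzd10 had 0 reads in the cultures and 23 reads in the tumor, at least 6.73-fold above 2D monoculture.

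**Figure D2:**
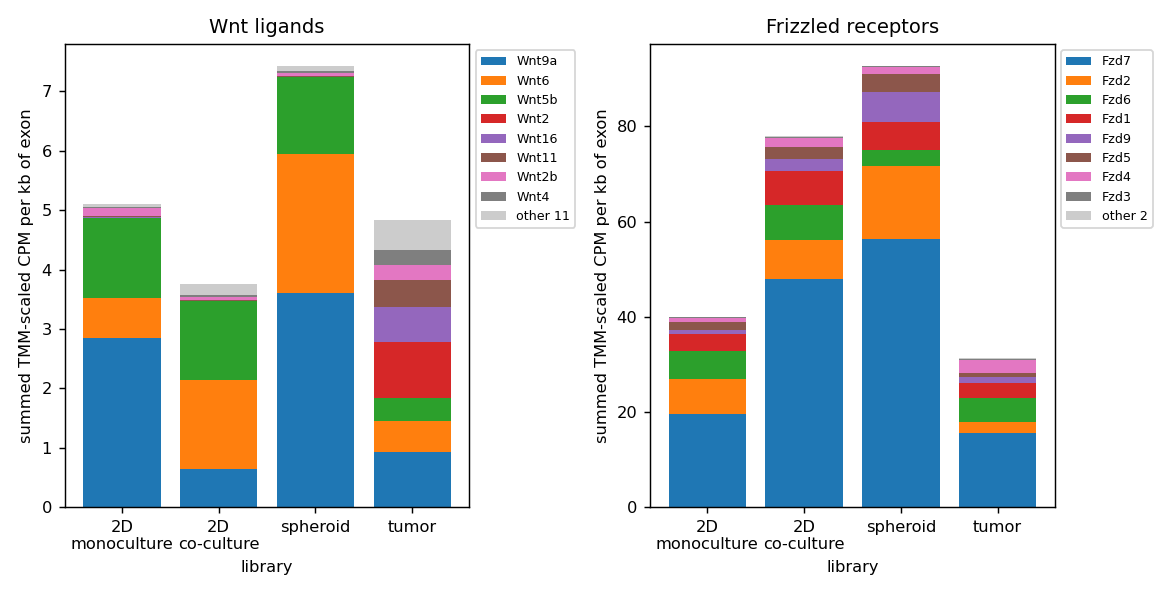
Stacked bars give the summed TMM-scaled CPM per kb of exon of the 19 Wnt ligands (left) and the 10 Frizzled receptors (right) in each library, split by gene. Fzd7 fills 49.0% to 61.5% of each receptor bar, and the tumor bar of the ligands is split over more genes, none above 19.3%.

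The 10 receptors together summed to 40.0 CPM per kb in 2D monoculture, 78.1 in 2D co-culture, 92.7 in the spheroid and 31.4 in the tumor. Below Fzd7 the order of the receptors differed between libraries. Fzd2 was second in the 3 cultures with 10.5% to 18.3% of the sum, and Fzd6 was second in the tumor with 16.6%. Fzd9 had rank 6 in 2D monoculture with 2.26% and rank 3 in the spheroid with 6.80%. Fzd7 exceeded Fzd6 per kb by 3.31-fold (3.19 to 3.44) in 2D monoculture, 6.62-fold (6.40 to 6.86) in 2D co-culture, 17.2-fold (16.5 to 18.1) in the spheroid and 2.99-fold (2.88 to 3.10) in the tumor. The GC content was 53.9% for Fzd7 and 47.4% for Fzd6, and these ratios carry no correction for it.

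The co-receptors differed in opposite directions in the cultures. Lrp6 had 90.6 CPM in 2D monoculture, 55.8 CPM in 2D co-culture, 34.1 CPM in the spheroid library and 99.5 CPM in the tumor. The spheroid was 2.66-fold below 2D monoculture, with a log2 ratio of -1.41 (-1.46 to -1.36). Lrp5 had 69.4, 90.3, 94.6 and 50.9 CPM in the same order, with a log2 ratio of the spheroid to 2D monoculture of 0.45 (0.41 to 0.49). Per kb of exon, Lrp5 therefore stood at 1.39 times Lrp6 (1.35 to 1.43) in 2D monoculture, 2.94 times (2.85 to 3.03) in 2D co-culture, 5.03 times (4.87 to 5.21) in the spheroid and 0.929 times (0.904 to 0.954) in the tumor. The co-receptors differ in base composition, with a GC content of 58.6% for Lrp5 and 46.0% for Lrp6, and the ratios of the libraries followed GC content across all genes, as described further on. After the correction for GC content and length, the log2 ratios of the spheroid to 2D monoculture were -0.30 for Lrp5 and -0.26 for Lrp6, so the opposite directions were gone in this comparison, while those of 2D co-culture were 0.44 and 0.0019.

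Ctnnb1, which encodes beta-catenin, was the most abundant of the 38 genes per kb in every library. It had 1249 CPM in 2D monoculture, 1339 CPM in 2D co-culture, 413 CPM in the spheroid library and 1585 CPM in the tumor. The spheroid was low and the other 3 libraries lay between 1249 and 1585 CPM. The spheroid was 3.02-fold below 2D monoculture, with a log2 ratio of -1.60 (-1.61 to -1.58), 3.24-fold below 2D co-culture and 3.83-fold below the tumor. Read counts do not report the amount or the location of the protein, through which the pathway acts. Ctnnb1 (ENSMUSG00000006932.17) lies on the plus strand of chromosome 9, from 120929216 to 120960507 in mm10. The RefSeq start used next lies inside this span and not at its beginning. The 250 bases before its first RefSeq start, chr9:120933150-120933399 on the plus strand of GRCm38.p6, are printed because this gene showed the largest drop in the spheroid among the 18 genes, and they hold none of the words searched.
Ctnnb1: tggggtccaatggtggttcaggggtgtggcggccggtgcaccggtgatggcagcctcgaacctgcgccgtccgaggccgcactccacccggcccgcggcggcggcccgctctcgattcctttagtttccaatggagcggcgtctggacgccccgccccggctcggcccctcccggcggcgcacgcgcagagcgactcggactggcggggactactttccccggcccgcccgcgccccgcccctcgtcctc
That none of these letters is in the window says nothing about any factor.

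Tcf7, which encodes TCF1, had 5.69 CPM in 2D monoculture, 15.9 CPM in 2D co-culture, 37.5 CPM in the spheroid library and 7.29 CPM in the tumor. The spheroid was 6.59-fold above 2D monoculture, with a log2 ratio of 2.72 (2.61 to 2.83), and 5.14-fold above the tumor, and 2D co-culture was 2.80-fold above 2D monoculture. Tcf7l2, which encodes TCF4, had 13.9, 17.1, 13.4 and 7.53 CPM in the same order. Its log2 ratio of the spheroid to 2D monoculture was -0.05 (-0.14 to 0.04), with an interval that includes 0. Per kb, Tcf7 stood at 0.678 times Tcf7l2 (0.624 to 0.736) in 2D monoculture, 1.55 times (1.45 to 1.65) in 2D co-culture, 4.62 times (4.38 to 4.88) in the spheroid and 1.61 times (1.48 to 1.74) in the tumor. The factor with more reads per kb was thus Tcf7l2 in 2D monoculture and Tcf7 in the other 3 libraries. The GC content was 52.3% for Tcf7 and 46.2% for Tcf7l2, and these ratios carry no correction for it. Lef1 had 15 reads in 2D monoculture, 63 reads in 2D co-culture, 22 reads in the spheroid and 16 reads in the tumor. At 0.550 CPM it was highest in 2D co-culture, 5.23-fold above 2D monoculture, but 34.5% of its exon bases overlap Gm43352 on the other strand.

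The feedback genes are known to be raised by pathway activity. Axin2, a scaffold of the destruction complex and the most widely used target gene of beta-catenin, had 10.5 CPM in 2D monoculture, 10.8 CPM in 2D co-culture, 14.7 CPM in the spheroid library and 6.32 CPM in the tumor. The log2 ratio of 2D co-culture to 2D monoculture was 0.05 (-0.06 to 0.16), that of the spheroid 0.49 (0.39 to 0.59) and that of the tumor -0.73 (-0.84 to -0.61). Znrf3, a ligase that removes Frizzled receptors from the cell surface, had 17.1, 24.8, 23.7 and 6.20 CPM, with the tumor 2.75-fold below 2D monoculture. Rnf43, a ligase of the same kind, had 16, 11, 48 and 16 reads, so that the spheroid with 0.352 CPM (0.260 to 0.467) was 3.14-fold above 2D monoculture. Under the correction for GC content given further on, the log2 ratios of Axin2 to 2D monoculture were 0.08 in the spheroid and 0.15 in the tumor. Those of Znrf3 were 1.16 and -0.37. The activity of the pathway was not tested.

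The sequence before Axin2 is printed as that of the reporter gene of the pathway. It lies at chr11:108920099-108920348 on the plus strand of GRCm38.p6, and it holds none of the TCF/LEF words searched.
Axin2: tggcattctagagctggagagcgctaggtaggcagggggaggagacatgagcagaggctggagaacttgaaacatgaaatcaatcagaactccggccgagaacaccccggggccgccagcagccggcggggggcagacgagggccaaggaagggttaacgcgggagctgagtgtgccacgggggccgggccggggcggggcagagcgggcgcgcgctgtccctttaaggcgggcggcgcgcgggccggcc
In all, 27 of the 38 genes matched an entry of the promoter table, and Fzd2, Fzd3, Fzd6, Fzd8, Lrp5, Lrp6, Znrf3, Wnt5a, Wnt7b, Wnt8a and Wnt10a did not.

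**Figure D3:**
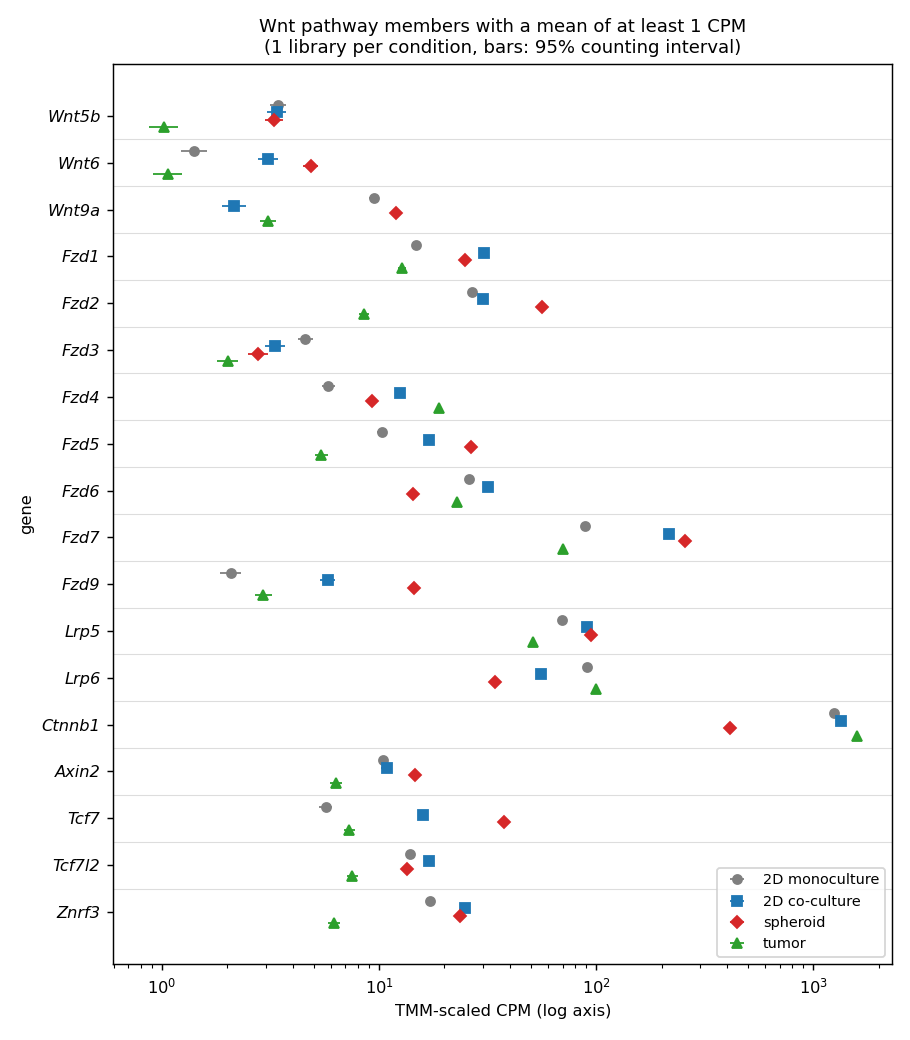
Points give the TMM-scaled CPM (log axis) of the 18 members with a mean of at least 1 CPM in each of the 4 libraries, with bars for 95% counting intervals. Ctnnb1 lies at 413 CPM in the spheroid against 1249 to 1585 CPM elsewhere, and Tcf7, Fzd9, Fzd7 and Fzd5 have their highest points in the spheroid.

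To set the members against all genes, each of the 12728 genes averaging 1 CPM or more was called higher or lower when its ratio passed 2-fold after 1 CPM had been added to both values. Between the spheroid and 2D monoculture, 6 of the 18 members were called higher, Fzd2, Fzd5, Fzd7, Fzd9, Tcf7 and Wnt6, against 11.2% of all genes. Lower were 2 members, Ctnnb1 and Lrp6, against 17.9% of all genes. The median log2 ratio was 0.45 over the members and 0.05 over all genes. Of the 8 receptors with a mean of 1 CPM, 4 were higher and none lower.

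Between 2D co-culture and 2D monoculture, 3 members were called higher, Fzd7, Fzd9 and Tcf7, against 3.79% of all genes. Only Wnt9a was called lower, against 9.51% of all genes. The median log2 ratio was 0.33 over the members and 0.01 over all genes. Both contrasts share the 2D monoculture library, so that the members called in each are not independent. Fzd1 and Fzd4 were just short of 2-fold in this contrast, both with a log2 ratio of 0.98 after the addition of 1 CPM.

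Between the tumor and 2D monoculture, Fzd4 was called higher, against 14.8% of all genes, and Fzd2, Wnt5b, Wnt9a and Znrf3 were called lower, 4 members against 18.2% of all genes. The median log2 ratio was -0.39 over the members and -0.14 over all genes. The ligands that were higher in the tumor did not reach a mean of 1 CPM over the 4 libraries and are not part of these counts. Between the spheroid and 2D co-culture, 3 members were called higher, Fzd9, Tcf7 and Wnt9a, against 9.54% of all genes, and 2 lower, Ctnnb1 and Fzd6, against 8.46%. The median log2 ratio was 0.02 over the members and -0.01 over all genes.

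Between the spheroid and the tumor, 10 members were called higher, against 26.8% of all genes, and 2 were called lower, Ctnnb1 and Lrp6, against 27.6%. The 10 were all 3 measured ligands (Wnt5b, Wnt6 and Wnt9a), the receptors Fzd2, Fzd5, Fzd7 and Fzd9, and Tcf7, Axin2 and Znrf3. The median log2 ratio was 1.09 over the members and 0.08 over all genes. With total counts in place of TMM factors, 8 members were higher and 3 lower, which moved the share of higher calls from 83.3% to 72.7%. The shares of all genes with total counts are not given here.

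The ratios between libraries followed the GC content of the transcripts, and the members are not spread evenly over it. From the 10% of genes with the least GC to the 10% with the most, the median log2 ratio went from -0.47 to 0.70 for the spheroid against 2D monoculture, from 0.48 to -0.80 for the tumor against 2D monoculture and from -1.13 to 1.57 for the spheroid against the tumor. For 2D co-culture against 2D monoculture it went from -0.19 to 0.11. Fzd9 and Wnt6, with 62.2% and 61.3% GC, were in the highest of these classes, and Fzd3 with 40.3% was in the lowest. The gradient therefore moves with some of the ratios given above.

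After the median of each class of GC content and exon length was subtracted, Tcf7, Fzd9, Fzd5 and Fzd7 kept log2 ratios of 2.19, 1.64, 1.57 and 1.40 for the spheroid against 2D monoculture, and Ctnnb1 kept -1.53. Lrp6 went from -1.38 to -0.26, Wnt6 from 1.28 to 0.62 and Fzd2 from 1.04 to 0.42, and these 3 no longer passed 2-fold. Znrf3 and Fzd4 joined the higher calls with 1.16 and 1.06. Of the members within 2-fold, Fzd3 went from -0.56 to 0.42, Tcf7l2 from -0.05 to 0.67, Wnt9a from 0.31 to -0.35, Wnt5b from -0.04 to -0.74 and Axin2 from 0.45 to 0.08. For 2D co-culture, Fzd7, Fzd9 and Tcf7 kept 1.31, 1.02 and 1.27, Fzd4 joined with 1.17, Wnt9a kept -1.80, and Fzd3 went from -0.37 to 0.21. For the tumor against 2D monoculture, Fzd4 kept 2.05, whereas Wnt9a, Wnt5b, Fzd2 and Znrf3 went to -0.41, -0.23, -0.50 and -0.37, and Fzd9 joined the higher calls with 1.26 and Fzd3 the lower with -1.24. Fzd1, Fzd5, Fzd6, Fzd7, Lrp5, Wnt6 and Axin2, all below 2D monoculture before, went to between 0.15 and 0.73. For the spheroid against 2D co-culture, Wnt9a kept 1.51 and Ctnnb1 -1.59, and Fzd9, Tcf7 and Fzd6 went to 0.61, 0.99 and -0.72. Wnt5b went from -0.03 to -0.61 there, Lrp5 from 0.07 to -0.78, and Fzd3, Tcf7l2 and Znrf3 from below 0 to 0.05, 0.08 and 0.43. For the spheroid against the tumor, Fzd5, Fzd7, Tcf7 and Znrf3 stayed higher with 1.51, 1.09, 1.74 and 1.80, and the 3 ligands, Axin2, Fzd2 and Fzd9 did not, with -0.45 to 0.94. In that comparison Fzd3 joined the higher calls with 1.84, as did Tcf7l2, Lrp5 joined the lower calls with -1.01, Ctnnb1 kept -1.97, Lrp6 went to -0.55 and Fzd1 from 0.91 to -0.24.

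**Figure D4:**
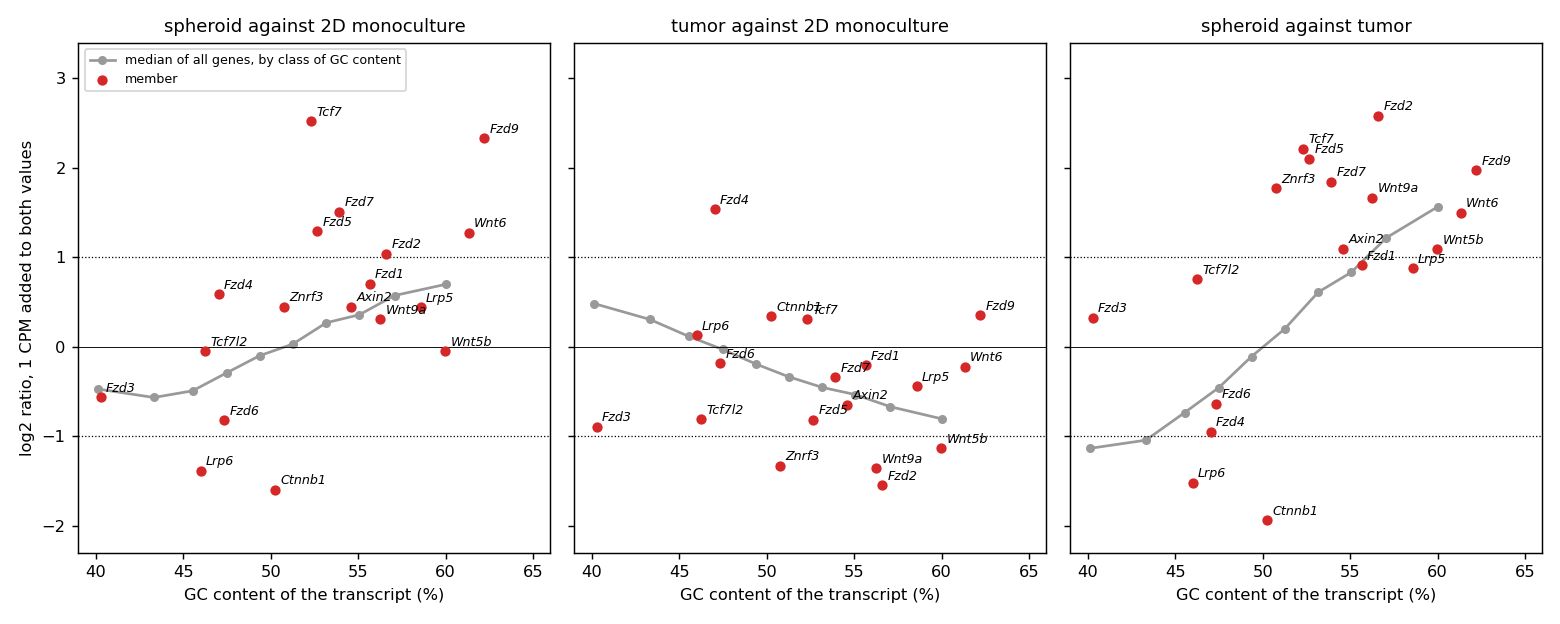
For 3 comparisons, red points give the log2 ratio (1 CPM added to both values) of each of the 18 members against the GC content of its transcript, and the grey line gives the median of all genes by class of GC content (10 classes of equal size), with dotted lines at 2-fold. Ctnnb1 lies below the line and Tcf7 above it in both panels with the spheroid, at log2 ratios of -1.59 and 2.52 against 2D monoculture.

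A further 71 genes of the pathway, in 7 lists by role, were all in the table, and 49 of them averaged 1 CPM or more. Of these, 9 were called higher and 9 lower in the spheroid than in 2D monoculture, against 11.2% and 17.9% of all genes. In 2D co-culture 3 were higher and 4 lower, against 3.79% and 9.51%, and in the tumor 5 were higher and 19 lower, against 14.8% and 18.2%. After the correction for GC content and length, the higher and lower calls numbered 6 and 6 in the spheroid, 3 and 2 in 2D co-culture and 10 and 4 in the tumor. The shares of all genes under the correction are not given here, so these corrected counts have no background to be read against. Most genes in the list named secreted inhibitors encode proteins that bind Wnt proteins or their receptors outside the cell. Kremen1 and Apcdd1 of this list are not secreted. Of the 7 measured, 5 were higher in the tumor than in 2D monoculture and none lower, and all 5 kept the call after the correction. Sfrp1, Sfrp2, Sfrp4 and Apcdd1 reached the mean of 1 CPM only through their tumor level, so the filter itself favored a higher call for them there. Sfrp2 had 0 CPM in 2D monoculture, 0.306 CPM in 2D co-culture, 0.0294 CPM in the spheroid library and 20.8 CPM in the tumor, at least 987-fold above 2D monoculture. Sfrp1 had 1 read in 2D monoculture, 0.629 CPM in 2D co-culture, 1 read in the spheroid library and 7.43 CPM in the tumor. Sfrp4, Apcdd1 and Dkk3 were the others. These are genes of fibroblasts in many tissues, and the fibroblast markers summed to 3194 CPM in the tumor against 19.7 CPM in 2D monoculture, whose part in the inhibitor levels was not tested.

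Dkk3 was also higher in the spheroid, with 11.6, 18.6, 31.2 and 49.9 CPM in 2D monoculture, 2D co-culture, the spheroid and the tumor, as was Kremen1, a receptor of the Dkk inhibitors, with 40.5, 44.0, 84.6 and 27.1 CPM. After the correction Dkk3 kept the spheroid call and Kremen1 lost it. Frzb, an inhibitor that resembles the Frizzled ligand-binding domain, had 28.3, 46.2, 37.6 and 15.0 CPM and was within 2-fold of 2D monoculture in the other 3 libraries. The enzyme Porcn, which attaches the lipid to Wnt proteins, had 1.57 CPM in 2D monoculture, 1.53 CPM in 2D co-culture, 10.99 CPM in the spheroid library and 2.36 CPM in the tumor, so the spheroid was highest, at 6.99-fold, a call that Porcn kept after the correction, under which it was called higher in the tumor as well. Wls, which carries Wnt proteins to the cell surface, had 187 to 253 CPM and passed 2-fold only after the correction, as higher in the spheroid than in the tumor. Lgr4, a receptor of the R-spondins that protect Frizzled receptors from Rnf43 and Znrf3, had 22.3 to 24.6 CPM, and Lgr6 had 1.61 to 3.69 CPM.

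Among the 14 genes of Dishevelled and the destruction complex, Dvl1 was higher in the spheroid than in 2D monoculture, against 11.2% of all genes. Apc, Tnks and Tnks2 were lower, 21.4% of the list against 17.9% of all genes. After the correction only Apc of these 4 kept the call, Gsk3b became higher and Btrc lower. Apc, a scaffold that is lost in colon tumors, had 77.9 CPM in 2D monoculture, 15.2 CPM in 2D co-culture, 9.85 CPM in the spheroid library and 57.9 CPM in the tumor. The spheroid was 7.91-fold and 2D co-culture 5.11-fold below 2D monoculture. Tnks, whose product marks Axin for degradation, had 68.2, 33.1, 18.1 and 31.5 CPM, and Dvl1, which relays the signal from Frizzled receptors, had 84.4, 86.4, 197 and 38.9 CPM. In the tumor 7 of the 14 were lower, against 18.2% of all genes, and none higher, among them Dvl3 with 63.2, 47.6, 77.5 and 11.99 CPM and Gsk3a, a kinase that marks beta-catenin for destruction, with 133, 141, 186 and 50.8 CPM. After the correction Dvl3 and Gsk3b stayed lower, whereas Gsk3a, Dvl1, Dvl2, Axin1 and Tnks did not and Apc2 became higher. Amer1 and Tnks2 had the highest tumor ratios of the list, with log2 ratios of 0.52 and 0.17.

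Of 10 nuclear partners of beta-catenin, 2 were higher in the spheroid than in 2D monoculture, against 11.2% of all genes. They were Tcf7l1, a TCF factor that mostly represses, and Ctnnbip1, an inhibitor of the binding of beta-catenin to TCF. Tcf7l1 had 6.91, 14.0, 23.8 and 7.16 CPM in 2D monoculture, 2D co-culture, the spheroid and the tumor, and Ctnnbip1 had 6.13, 11.7, 16.8 and 12.5 CPM. Both lost the spheroid call after the correction, under which Pygo1 was called higher. Per kb, Tcf7 stood at 0.967 times Tcf7l1 (0.880 to 1.06) in 2D monoculture and 1.85 times (1.77 to 1.93) in the spheroid, with no correction for GC content. In the tumor 5 of the 10 were lower, against 18.2% of all genes, with Bcl9l, a co-activator, at 72.5, 97.6, 90.6 and 16.9 CPM and Tle1, a co-repressor, at 37.4, 59.0, 67.7 and 13.1 CPM. After the correction none of the 5 stayed lower, and Tcf7l1 and Ctnnbip1 became higher in the tumor. Tle3 and Tle4 had the lowest spheroid ratios of the list, with log2 ratios of 0.32 and 0.25.

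Of the 4 measured target genes of beta-catenin, Mitf and Tnfrsf19 were called lower in the spheroid than in 2D monoculture, against 17.9% of all genes. Myc was called higher in 2D co-culture, against 3.79%, and Ccnd1 and Tnfrsf19 lower in the tumor, against 18.2%. Mitf had 416 CPM in 2D monoculture, 223 CPM in 2D co-culture, 70.3 CPM in the spheroid library and 708 CPM in the tumor, so that the spheroid was 5.91-fold below 2D monoculture. Myc, which drives cell growth, had 43.3, 153, 73.7 and 40.6 CPM, with 2D co-culture 3.54-fold above 2D monoculture. Ccnd1, a cyclin of the first growth phase, had 390, 599, 225 and 96.2 CPM. Tnfrsf19 had 20.99, 14.7, 3.66 and 6.01 CPM. All 4 were called lower in the spheroid than in 2D co-culture, against 8.46% of all genes, and Axin2 was within 2-fold. All of these calls were kept after the correction. Nkd1, Nkd2 and Sp5 of the same list were under a mean of 1 CPM and were not called. In 2D monoculture, 2D co-culture, the spheroid and the tumor, Nkd1 had 10, 5, 44 and 86 reads and Nkd2 had 0, 7, 1 and 108 reads. Sp5 had at most 1 read in any library.

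In the list of alternative receptors and planar polarity genes, 3 of 10 were higher and 4 lower in the spheroid than in 2D monoculture. The shares of all genes were 11.2% and 17.9%. Vangl2, a core planar polarity protein, had 18.9, 36.9, 65.6 and 12.01 CPM, and Celsr2, an adhesion receptor of that system, had 20.9, 35.9, 55.8 and 6.20 CPM. Prickle1, another core member, had 155, 218, 39.7 and 50.1 CPM, and Daam1, which links Dishevelled to the actin skeleton, had 74.5, 33.0, 26.8 and 40.1 CPM. Core members of the planar polarity system thus differed in opposite directions within the same library. In the tumor 5 genes of the list were lower, against 18.2% of all genes, and none higher, against 14.8%. Celsr2 and Daam2 (57.8, 45.9, 26.5 and 17.3 CPM) were lowest in ratio. After the correction Vangl2 and Celsr2 stayed higher and Prickle1 and Daam2 lower in the spheroid, Ptk7, Daam1 and Prickle2 lost that call, and none of the 5 stayed lower in the tumor, where Ptk7 became higher. Ptk7 and Ryk, receptors outside the Frizzled family, had the highest tumor ratios, Ptk7 with 0.941, 6.46, 3.44 and 2.77 CPM and Ryk with 98.1, 137, 93.3 and 88.5 CPM.

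**Figure D5:**
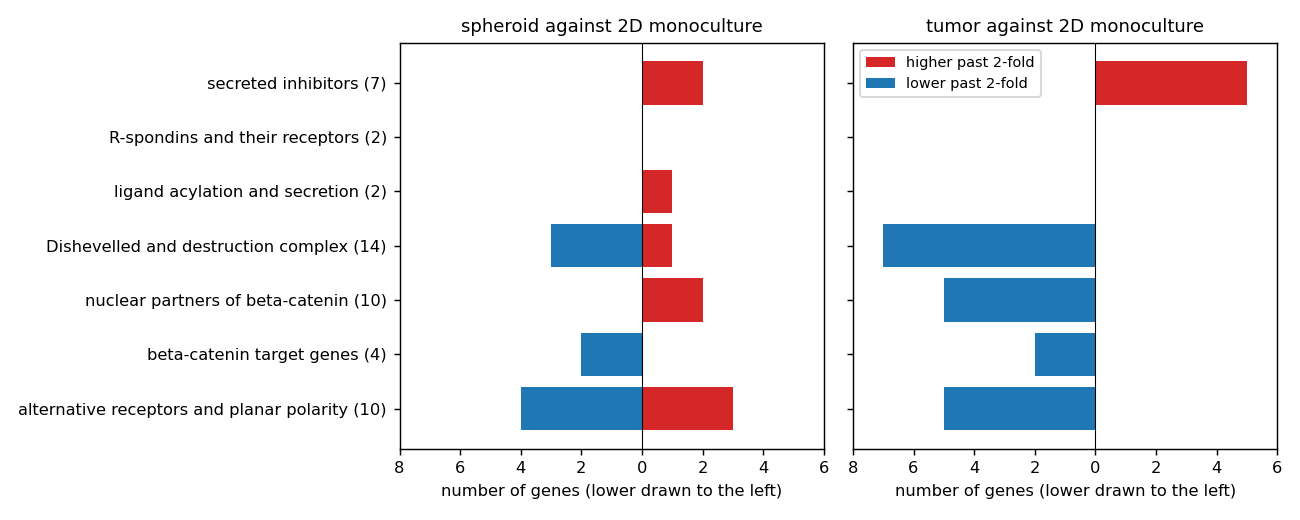
Bars give, for each of the 7 lists of other pathway genes (genes averaging 1 CPM or more in brackets), how many were past 2-fold higher (right) or lower (left) than 2D monoculture in the spheroid and in the tumor. In the tumor the 5 higher genes are all in the list of secreted inhibitors, and the 19 lower genes lie in 4 other lists. Of the higher genes, Sfrp1, Sfrp2, Sfrp4 and Apcdd1 passed the filter only through their tumor level. The division between lists did not hold after the correction for GC content and length, with 10 higher genes in 5 lists and 4 lower genes.

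Between the spheroid and the tumor, 20 of the 49 genes were called higher and 8 lower, against 26.8% and 27.6% of all genes. Between the spheroid and 2D co-culture 3 were higher and 6 lower, against 9.54% and 8.46%. After the correction these counts were 11 and 9, and 2 and 10, with no share of all genes given for them. With total counts in place of TMM factors, the share of higher calls went from 71.4% to 60.7% for the spheroid against the tumor and from 20.8% to 40.9% for the tumor against 2D monoculture, and it was again 40.9% in the latter with upper quartiles. For 2D co-culture against 2D monoculture it went from 42.9% to 62.5% with upper quartiles, among 8 calls. Calls over all genes under these other scalings are not given here.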

How the data were processed

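The deposited table gives raw read counts for 24527 gene symbols in 4 libraries, as whole numbers that the authors did not normalize. Libraries were made from poly(A) RNA and sequenced as paired ends. The submitters' processing notes name Trimmomatic, STAR, featureCounts and the build mm10. Versions and the strand setting were not given in the sources used here. The study named NOISeq and GFOLD for its comparisons.

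Counts were scaled to CPM with TMM factors of edgeR 4.0.16 in R 4.3.3. DESeq2 1.42.0 size factors, total counts and upper quartiles were alternatives. Other steps used Python 3.11.15, numpy 2.4.6, pandas 2.3.3, scipy 1.17.1 and matplotlib 3.10.9. Intervals are exact (Clopper-Pearson for CPM, exact binomial for ratios), and log2 ratios of single genes carry no pseudocount. Calls, medians, and values corrected for GC content and length use a pseudocount of 1 CPM. GC content, exon length, gene positions and overlaps come from GENCODE M21 (GRCm38, the same assembly as mm10), with values for 99.5% of the 12728 genes, and the correction uses 10 by 10 classes of 56 to 224 genes. Promoters come from a table of RefSeq starts on GRCm38.p6, which holds 27 of the 38 genes. The scripts were checked on simulated counts.

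The members and lists were chosen with earlier results of these data known. All members are named, those under 1 CPM with their range. Of the other lists, the 2 highest and 2 lowest ratios of the spheroid and of the tumor to 2D monoculture are named, and Sfrp4, Apcdd1, Tnks2 and Tnks as short lists of calls, chosen after their values were seen, as were the genes named for a call gained or lost under the correction. Nkd1, Nkd2 and Sp5 were likewise named after their values were seen, as the target genes under a mean of 1 CPM.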

Additional observations from a re-analysis of the deposited data

How the results depend on the processing

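No paired analysis was possible because there is 1 library per condition, and no library could be left out for the same reason. The alternatives for the 71 other pathway genes were chosen after seeing the data. Of 80 counts of member calls under an alternative, 70 stayed within 1.5 times the count reported, and of 35 medians over the members 32 moved by less than 1.5-fold. Log2 ratios of single members were held to the distance from the middle of their counting interval to its ends, which is short at high counts. By that measure 172 stayed, 186 moved and 2 past 2-fold changed sign. Under the correction for GC content and length alone, 11 stayed, 77 moved and 2 past 2-fold changed sign. Ratios within 2-fold that changed sign, such as those named further above, are counted here as stayed or moved. Of the largest shares of a class, 1 stayed and 7 moved when levels were not divided by length.

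Under the correction for GC content and length, the log2 ratio of the spheroid to the tumor changed sign for Axin2 (-0.054) and Wnt5b (-0.45), which had been called, and for Fzd1 (-0.24) and Lrp5 (-1.01), and the median over the members was 0.10 for the spheroid against the tumor and 0.27 for the tumor against 2D monoculture. Higher members numbered 1 for the spheroid against 2D co-culture, 6 against the tumor and 2 for the tumor against 2D monoculture, and lower members 1 each for the spheroid against 2D co-culture, the spheroid against 2D monoculture and the tumor against 2D monoculture. Of the other pathway genes, 11 were then higher in the spheroid than in the tumor, 10 higher and 4 lower in the tumor than in 2D monoculture, 2 lower in 2D co-culture than in 2D monoculture and 10 lower in the spheroid than in 2D co-culture. The correction removes the trend with GC content and length from every ratio. Shares of all genes under it are not given here, so the corrected counts of members and of other genes have no background to be read against.

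With a pseudocount of 0.1 CPM, 6 members and 7 other genes were higher in 2D co-culture than in 2D monoculture, and 10 other genes were lower in the spheroid than in 2D co-culture. With upper quartiles, 5 members and 5 other genes were higher in 2D co-culture than in 2D monoculture. In the tumor against 2D monoculture, 9 other genes were higher with upper quartiles, with total counts and with no filter. Without the filter on low values, 5 members were higher in the tumor than in 2D monoculture and 7 lower in the spheroid than in the tumor, the median over the members of the latter was 0.0051, 5 other genes were higher in 2D co-culture than in 2D monoculture and 13 lower in the spheroid than in the tumor. With a mean of at least 5 CPM, 1 other gene was higher in 2D co-culture than in 2D monoculture, 1 in the spheroid than in 2D co-culture and 2 in the tumor than in 2D monoculture, and 4 were lower in the spheroid than in the tumor. With counting intervals wholly past 2-fold, 6 other genes were higher in 2D co-culture than in 2D monoculture and 10 lower in the spheroid than in 2D co-culture. Shares of all genes under these settings are not given here either, so these counts also have no background to be read against.

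Filters change which genes are counted, and the cause of the other moves was not tested. Scaling moved the ratios of all genes by up to -0.36 (total counts, spheroid against tumor) and 0.25 (upper quartiles, tumor against 2D monoculture) on the log2 scale. The limits are those of 1 library per condition: counting intervals leave out the spread between cultures or animals, and genes with 3 reads or fewer in both libraries are not compared.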
